A study of Homo sapiens with 2 samples.

Results

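The polycomb group was examined in PC3 prostate cancer cells after knockdown of SUB1, a transcriptional coactivator. The genes were EZH2, EZH1, EED, SUZ12, RBBP4 and RBBP7 of polycomb repressive complex 2 (PRC2), and BMI1, CBX2, CBX7 and RING1 of PRC1. Every array probe for a gene whose printed gene name was 1 of these 10 symbols, or an older name of one, was taken, which gave 16 of 41000 probes. All 16 were found under the current symbol and were spotted once per array. After probes too dim for a ratio were set aside (not well above background in any channel of one array or the other), there remained 15 polycomb probes for 9 genes among 25673 probes for 19218 genes. The CBX2 probe was not well above background in either channel of either array and has no ratio here.

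PC3 is an established cell line grown from a metastasis of prostate cancer. Cells received SUB1 siRNA 1, SUB1 siRNA 2 or Non-T siRNA, a non-targeting control, by lipid transfection that was repeated after 24 h, and were harvested at 72 h. Each SUB1 siRNA had 1 dual-colour Agilent array, on which its RNA was labelled with Cy5 and RNA from Non-T siRNA-treated cells with Cy3. The dyes were not swapped, so a probe's dye bias that is alike on both arrays cannot be told apart from knockdown in its ratios. Each siRNA stands without a biological replicate. Values are log2 ratios, SUB1 siRNA over Non-T siRNA, after loess within each array, and for a gene with more than 1 probe the brightest probe stands for the gene.

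Technical error was taken from the 209 kept probes that are spotted 10 times. Among the spots of such a probe the log2 ratio had a median SD of 0.078 with siRNA 1 and 0.074 with siRNA 2. It does not include differences between cultures. SUB1 itself (NM_006713) kept 10.2% of the Non-T signal with siRNA 1 and 10.4% with siRNA 2, and its 4 probes ranged from 7.42% to 33.8%. Of 9 genes listed for PC3 and prostate epithelium 8 were kept, at 6.55 to 15.9 normalized log2 units in Non-T cells of the siRNA 1 array, against a median of 8.02 over all genes. The RefSeq probe of KLK3 (prostate-specific antigen) was not well above background on either array. In this list KLK3 was represented by another probe, its brightest, at 14.3 in Non-T cells of the siRNA 1 array. Of 8 markers of other cell types 5 were kept, at 6.36 to 7.17.

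Polycomb proteins keep genes silent through chromatin. PRC2 methylates histone H3 on K27: EZH2 or its relative EZH1 is the enzyme, EED and SUZ12 are the core partners without which it is inactive, and RBBP4 and RBBP7 are closely related histone-binding subunits. PRC1 ubiquitinates histone H2A and compacts chromatin: RING1 and RNF2 carry the ubiquitin ligase activity, BMI1 is a partner of the ligase, and CBX proteins bind the mark that PRC2 makes. EZH2 is often abundant in metastatic prostate cancer and its mRNA is high in dividing cells. The microRNA miR-101 is known to repress EZH2, and the study examined it as a regulator of SUB1.

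The mature miR-101 sequence is shown because it links EZH2 with SUB1, and it comes from RefSeq (GRCh38.p14, chr9:4850345-4850365, + strand, from the MIR101-2 gene). Capitals mark the seed, bases 2 to 8.
hsa-miR-101-3p: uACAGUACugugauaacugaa
Of the 2370 mature names in the RefSeq miRNA table, 0 others had this seed. The samples were treated with siRNAs only and miR-101 was not measured on these arrays.

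No polycomb gene reached a 2-fold change with either siRNA. Over all genes tested, 0.817% were at least 2-fold changed with siRNA 1 and 1.68% with siRNA 2. The median log2 ratio of the 9 polycomb genes was 0.04 with siRNA 1 and 0.20 with siRNA 2, against 0.02 over all genes with each. EZH2, RBBP7 and, close to 0, EED had ratios below 0 with both siRNAs. RBBP4, SUZ12, CBX7 and RING1 had ratios above 0 with both, BMI1 had a lower signal with siRNA 1 and a higher one with siRNA 2, and the dim EZH1 probe had opposite signs the other way. When the mean of both ratios was tested against 0 with limma, 0 of 9 had an adjusted p under 0.05 (Benjamini-Hochberg over 19218 genes), where 1 gene, SUB1, passed, or 0.0052% of those tested. At an unadjusted p under 0.05 there were 4 of 9 polycomb genes (EZH2, RBBP4, RBBP7 and RING1), against 20.9% of all genes. This test rests on 2 arrays, and whether their spread includes that of the control is not known, since the labels do not say if both carry the same Non-T RNA.

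**Figure D1:**
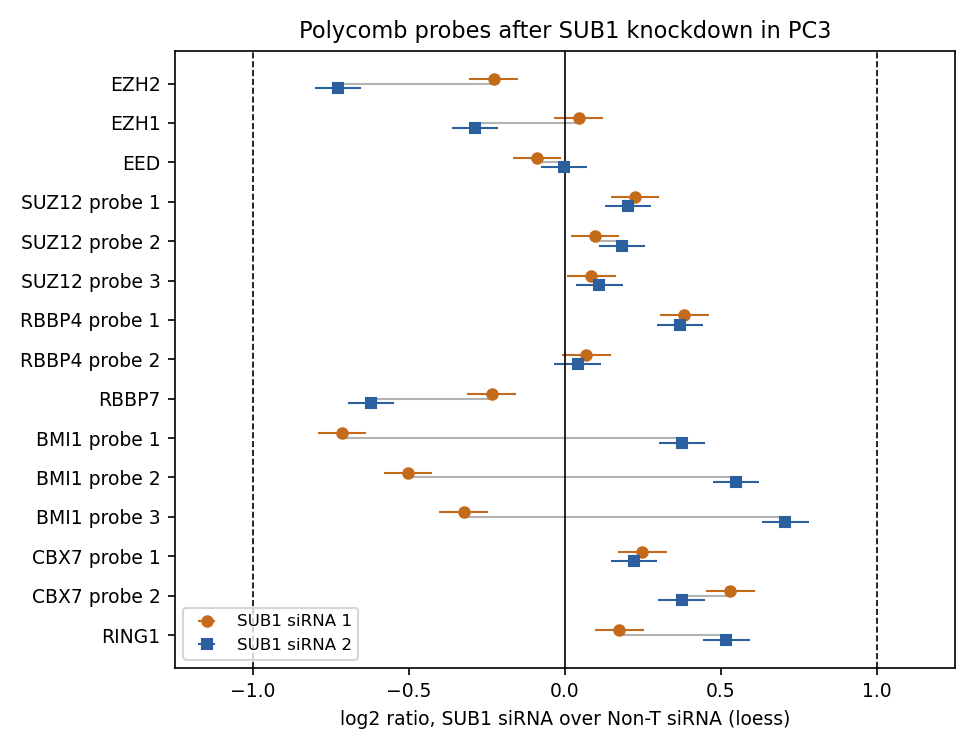
Log2 ratio over Non-T siRNA (horizontal axis) for the 15 kept polycomb probes (rows), with siRNA 1 as circles and siRNA 2 as squares. Bars are the median SD of probes spotted 10 times (0.078 and 0.074), dashed lines mark a 2-fold change, and all 3 BMI1 probes have the siRNAs on opposite sides of 0.

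EZH2, the main H3K27 methyltransferase of dividing cells, was measured by 1 probe (NM_004456, at chr7:148135454-148135513 of hg18, minus strand). The EZH2 probe had a raw intensity of 1459 in Non-T cells and 1493 with siRNA 1 on the first array, and of 1277 in Non-T cells and 933 with siRNA 2 on the second. After normalization the log2 intensity was 10.52 and 10.56 in the Non-T samples, 10.29 with siRNA 1 and 9.83 with siRNA 2. Both SUB1 siRNA samples lay below both Non-T samples, which differed by 0.04.

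The EZH2 log2 ratio was -0.23 with siRNA 1 and -0.73 with siRNA 2, which left 85.3% and 60.3% of the Non-T signal. Both were beyond the spread among spots. The mean was -0.48 (SE 0.15) with an adjusted p of 0.196 in limma's test, so the decrease did not pass. Among all genes, 16.0% had a lower ratio than EZH2 with siRNA 1 and 2.49% with siRNA 2. The value with siRNA 1 depended on the loess curve: with each array centred on its median instead, EZH2 was at 0.0029 with siRNA 1 and at -0.50 with siRNA 2, a mean of -0.25. It was below 0 with siRNA 1 in 9 of 10 alternatives and with siRNA 2 in 10 of 10. Of these, averaging all probes, other filters on dim probes, kept outlier spots and an eBayes intensity trend left both ratios identical. Those alternatives could not change the sign.

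EZH1, the relative of EZH2 that is used more in resting cells, was dim. The EZH1 probe (NM_001991, chr17:38106200-38106259 of hg18) gave raw intensities of 116 and 103 in the Non-T samples, 109 with siRNA 1 and 79.5 with siRNA 2, and was not well above background in Cy3 of the siRNA 1 array. Its log2 ratio was 0.04 with siRNA 1 and -0.29 with siRNA 2 (adjusted p = 0.601, limma). The signs were the same in 9 of 9 alternatives, several of which (all probes averaged, no filter, outlier spots kept, intensity trend) left both ratios identical. With the scanner's processed signals the ratios were 0.46 and -0.83. Since the probe was near background, no order of the siRNAs was read from it.

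EED, which binds the finished methyl mark and stimulates the enzyme, showed values close to 0. The EED probe (NM_152991, chr11:85667277-85667336 of hg18) had normalized log2 intensities of 8.90 and 9.05 in the Non-T samples, 8.81 with siRNA 1 and 9.05 with siRNA 2. The Non-T samples differed by 0.15, more than either ratio. The EED ratio was -0.09 with siRNA 1 and -0.0020 with siRNA 2, and with median centring it was 0.10 and 0.19.

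SUZ12, the scaffold of PRC2, was measured by 3 probes (NM_015355), all with ratios above 0 on both arrays. The brightest SUZ12 probe (chr17:27349869-27349928 of hg18) had normalized log2 intensities of 11.32 and 11.31 in the Non-T samples, 11.54 with siRNA 1 and 11.52 with siRNA 2. Its ratio was 0.22 with siRNA 1 and 0.20 with siRNA 2 (adjusted p = 0.285, limma). The other two SUZ12 probes had 0.10 and 0.08 with siRNA 1, and 0.18 and 0.11 with siRNA 2. They match chr17:27288629-27291453 and chr17:27326807-27327674, stretches longer than 60 bases, so those probes align across a gap in the genome. The ratios were smaller for the dimmer probes. The RefSeq table lists 2 SUZ12 pseudogenes, whose RNA these probes may share. The probe named for SUZ12P1 was at the dim end, at a mean log2 intensity of 6.39.

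RBBP4 and RBBP7, the paired histone-binding subunits, differed in sign. The brighter RBBP4 probe (NM_005610, chr1:32918395-32918454 of hg18) had normalized log2 intensities of 10.22 and 10.30 in the Non-T samples, 10.60 with siRNA 1 and 10.66 with siRNA 2. Its ratio was 0.38 with siRNA 1 and 0.37 with siRNA 2, or 130.4% and 129.1% of the Non-T signal, with a mean of 0.38 (SE 0.094) and an adjusted p of 0.153 in limma's test. Both SUB1 siRNA samples lay above both Non-T samples. The second RBBP4 probe was not well above background in Cy3 of either array and had 0.07 and 0.04. With all probes of a gene averaged, RBBP4 had a mean of 0.22. The RefSeq table lists 7 RBBP4 pseudogenes, so its signal is uncertain to that extent, and likewise 1 pseudogene each of BMI1 and EED.

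The RBBP7 probe (NM_002893, chrX:16772931-16772990 of hg18, minus strand) was the brightest of the polycomb probes. Its normalized log2 intensity was 13.09 and 12.99 in the Non-T samples, 12.85 with siRNA 1 and 12.37 with siRNA 2. The RBBP7 ratio was -0.24 with siRNA 1 and -0.62 with siRNA 2, or 85.0% and 65.0% of the Non-T signal, with a mean of -0.43 (SE 0.13) and an adjusted p of 0.191 in limma's test. EZH2 and RBBP7 were thus close with siRNA 1, and EZH2 was the lower with siRNA 2. Under median centring RBBP7 was at 0.09 with siRNA 1 and -0.29 with siRNA 2, with a mean of -0.10.

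**Figure D2:**
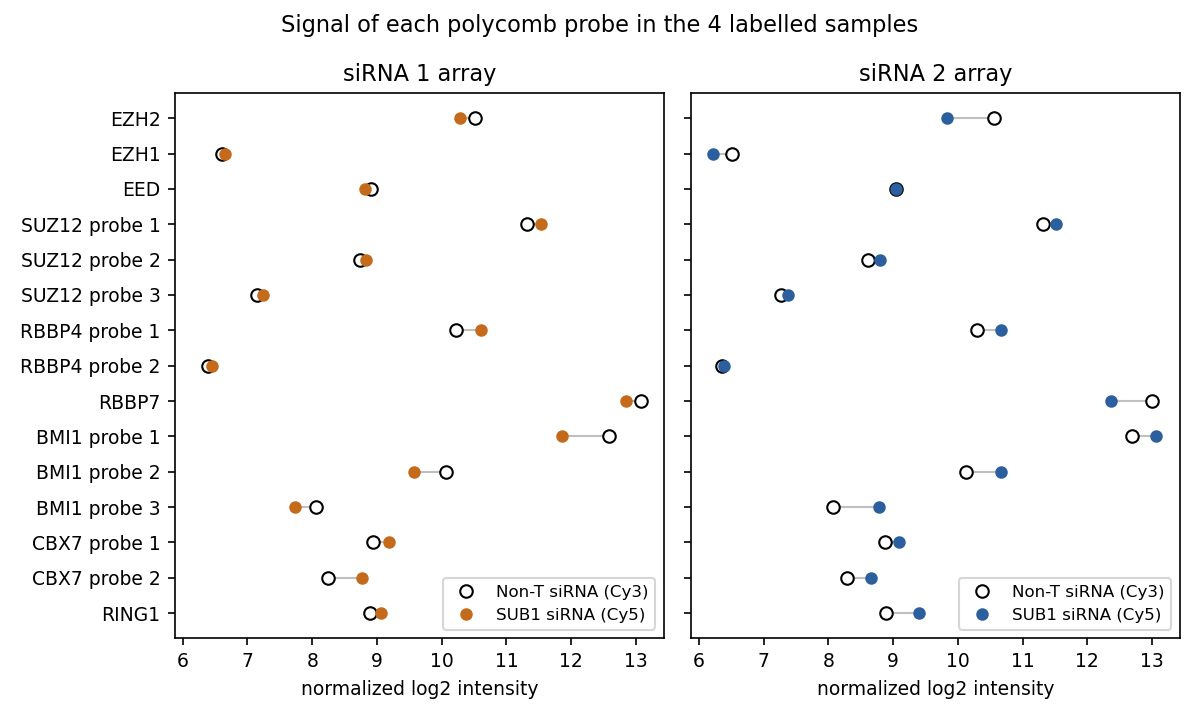
Normalized log2 intensity (horizontal axis) of each polycomb probe in the Non-T siRNA sample (open circles) and the SUB1 siRNA sample (filled circles) of the siRNA 1 array (left) and the siRNA 2 array (right). Probes ranged from RBBP7 at 13.09 to the dim RBBP4 and EZH1 probes near 6.4, and the Non-T signals of each probe were close between the arrays.

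BMI1, the ring-finger partner of the PRC1 ligase, gave the widest gap between the siRNAs, and all 3 of its probes showed it. The brightest BMI1 probe (L13689, chr10:22659818-22659884 of hg18) had raw intensities of 5919 in Non-T cells and 4581 with siRNA 1, and of 5346 in Non-T cells and 9074 with siRNA 2. Its normalized log2 intensity was 12.58 and 12.69 in the Non-T samples, 11.86 with siRNA 1 and 13.06 with siRNA 2. The sample with siRNA 1 was the lowest of the 4 and that with siRNA 2 the highest.

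The log2 ratios of the brightest BMI1 probe were -0.71 with siRNA 1 (60.9% of the Non-T signal) and 0.38 with siRNA 2 (129.8%). The second BMI1 probe (NM_005180, chr10:22659583-22659642) had -0.50 and 0.55, and the third (NM_005180, chr10:22657593-22658001, aligned across a gap) had -0.33 and 0.71. Each of these 6 ratios was more than 3 times the SD among spots. With siRNA 1 the brightest probe was the lowest of the 3 and with siRNA 2 the dimmest was the highest, so the level set by the 3 probes differed while the gap between siRNAs was 1.09, 1.05 and 1.03.

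For BMI1 the gap arose in the SUB1 siRNA channel. Between the arrays, the Non-T signal of the 3 probes differed by 0.11, 0.06 and 0.01, and the SUB1 siRNA signal by 1.20, 1.11 and 1.04. Over all genes the corresponding differences had an SD of 0.12 for Non-T and 0.31 for SUB1 siRNA, and 0.697% of genes had a SUB1 siRNA difference at least as wide as that of the brightest BMI1 probe. There were 96 genes (0.4995%) with opposite signs on the arrays and both ratios at least as far from 0 as the nearer of BMI1's. The opposite signs held in 10 of 10 alternatives. Of these, the other filters on dim probes, kept outlier spots and the eBayes intensity trend left both ratios identical and could not change them. The mean over both siRNAs, -0.17 (SE 0.27, adjusted p = 0.753 in limma's test), describes neither array. Since each siRNA had 1 array, the gap between the siRNAs was not tested.

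COMMD3 lies directly upstream of BMI1 and the RefSeq table lists a COMMD3-BMI1 read-through gene. Its probe, chosen after its values were seen, had log2 ratios of 0.59 with siRNA 1 and 0.12 with siRNA 2, an order opposite to that of BMI1.

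**Figure D3:**
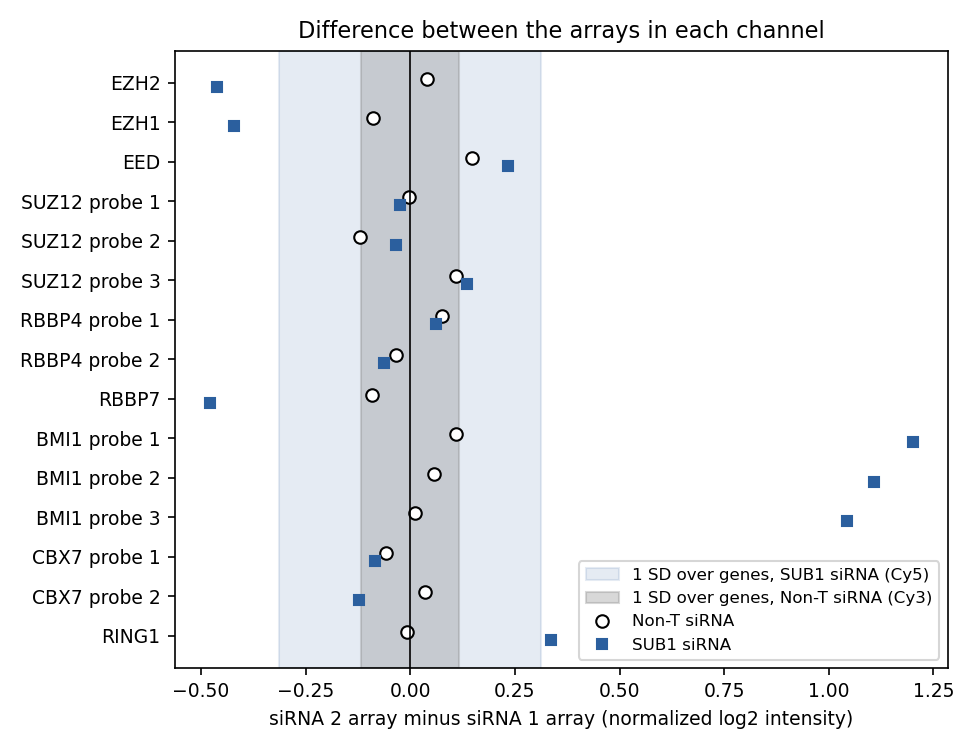
Difference between the siRNA 2 array and the siRNA 1 array in normalized log2 intensity (horizontal axis) for the Non-T siRNA channel (open circles) and the SUB1 siRNA channel (squares) of each polycomb probe. Shaded bands are 1 SD over all genes (0.12 and 0.31), and the 3 BMI1 probes lie at 1.04 to 1.20 in the SUB1 siRNA channel.

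CBX7, a reader of the PRC2 mark, had ratios above 0 for both probes (NM_175709). The CBX7 probe at chr22:37856946-37857005 of hg18 had normalized log2 intensities of 8.93 and 8.87 in the Non-T samples, 9.18 with siRNA 1 and 9.09 with siRNA 2. Its ratios were 0.25 and 0.22 (adjusted p = 0.260, limma), and those of the dimmer CBX7 probe at chr22:37856765-37856824 were 0.53 and 0.37. RING1 (NM_002931, chr6:33288091-33288150 of hg18) had 8.89 and 8.88 in the Non-T samples, 9.07 with siRNA 1 and 9.40 with siRNA 2. Its ratio was 0.17 with siRNA 1 and 0.52 with siRNA 2, with a mean of 0.35 (SE 0.12) and an adjusted p of 0.227 in limma's test. For CBX7 and RING1 both SUB1 siRNA samples lay above both Non-T samples.

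Between the siRNAs, the difference of ratios (siRNA 2 minus siRNA 1) was -0.50 for EZH2, -0.39 for RBBP7 and 0.34 for RING1. For the brightest probes of SUZ12, RBBP4 and CBX7 it was -0.02, -0.01 and -0.03, within the spread among spots, and for the second CBX7 probe it was -0.16. Of the 9 polycomb genes 2 had opposite signs, against 31.6% of all genes. Centring each array on its median moved the bright probes upward relative to loess. The mean became 0.48 for SUZ12, 0.61 for RBBP4, 0.43 for CBX7 and 0.54 for RING1, each over 1.5 times the loess value, and the median of all genes moved by 0.10 with each siRNA.

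**Figure D4:**
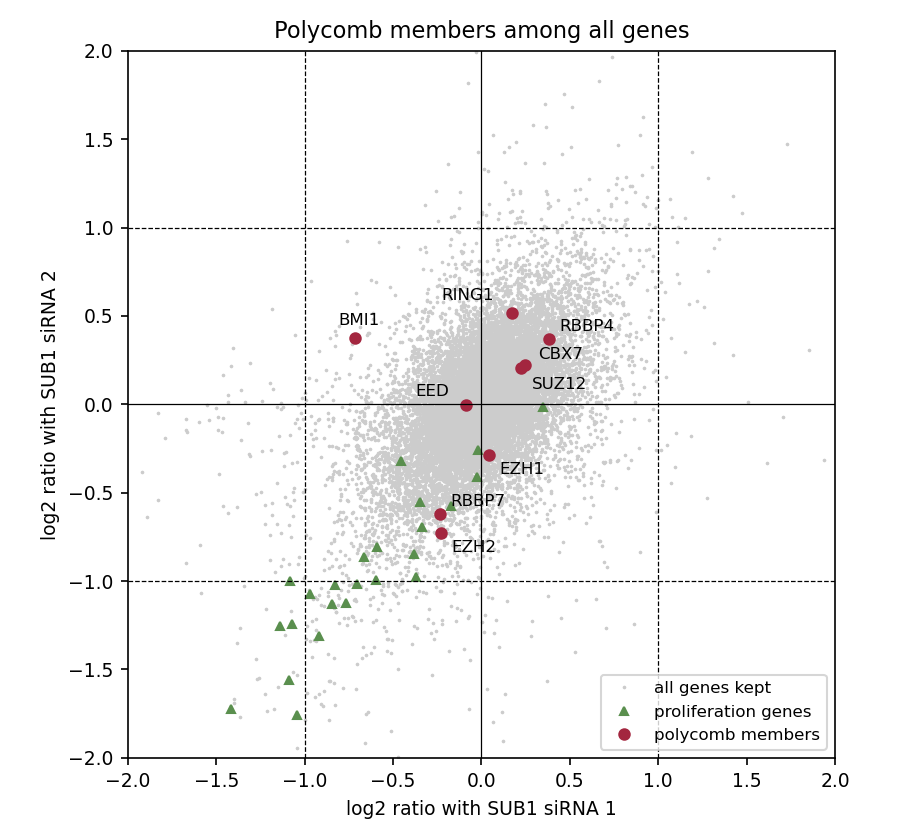
Log2 ratio with SUB1 siRNA 1 (horizontal axis) and SUB1 siRNA 2 (vertical axis) for all genes (grey), 24 proliferation genes (triangles) and the 9 polycomb genes (circles, labelled), with dashed lines at a 2-fold change. Genes beyond the axis limits, SUB1 among them, are not drawn, and EZH2 and RBBP7 lie among the proliferation genes with the smaller decreases.

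Genes with the pattern most like that of EZH2 were taken as the 5 with the smallest Euclidean distance between their pair of ratios and that of EZH2, over the 2 arrays. They were RAB21 (-0.24 and -0.73), which encodes a small GTPase of endosomes, a probe named ENST00000355793 on the array (-0.23 and -0.72), a probe named ENST00000370871 (-0.24 and -0.73), DEF6 (-0.25 and -0.73) and INHBA (-0.24 and -0.74), which encodes an activin subunit. All lay within 0.019 of EZH2, below the spread among spots, so their order carries no weight.

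The proliferation genes, listed because EZH2 mRNA is high in dividing cells, were centred (median log2 ratio) at -0.68 with siRNA 1 and -0.998 with siRNA 2. All 24 were measured, 23 had ratios below 0 with both siRNAs, and 21 of 24 (87.5%) had an unadjusted p under 0.05 in limma's test, against 20.9% of all genes, with 0 at an adjusted p under 0.05. At least 2-fold lower were 6 with siRNA 1 and 12 with siRNA 2, and these 12 included all 6. Over all genes 0.609% were at least 2-fold lower with siRNA 1 and 1.07% with siRNA 2. The lowest mean ratios were those of PLK1, a mitotic kinase (-1.41 and -1.72), CDK1, the kinase that starts mitosis (-1.04 and -1.76), and TK1, which makes thymidine nucleotides (-1.09 and -1.56). The others at least 2-fold lower were RRM2, FOXM1, MYBL2, CCNB1, BUB1, TOP2A, TYMS, MCM7 and AURKA. These calls depended on the processing. With median centring PLK1 alone was 2-fold lower with siRNA 1, and PLK1, CDK1, TK1, RRM2, FOXM1 and MYBL2 with siRNA 2. In the authors' table the genes past 2-fold with siRNA 1 were PLK1, RRM2 and CCNB1. With processed signals more of the list passed with each siRNA, among them AURKB, CCNA2 and MKI67 with both. EZH2 and RBBP7 thus had ratios nearer to 0 than the median of the list on both arrays. Fewer dividing cells and less RNA per cell cannot be told apart in bulk samples, and the part of these genes in the EZH2 and RBBP7 ratios was not tested.

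For the other polycomb genes 29 of 33 were measured, with median ratios of 0.07 (siRNA 1) and 0.12 (siRNA 2). None reached 2-fold, with 9 of 29 (31.0%) at an unadjusted p under 0.05, against 20.9% of all genes, and 0 at an adjusted p under 0.05 (limma). Of the other PRC2 genes 6 of 7 were measured, with medians of 0.22 and 0.27. MTF2, a polycomb-like protein that brings PRC2 to DNA, had 0.75 with siRNA 1 and 0.59 with siRNA 2. JARID2, which recruits PRC2 and tunes its activity, had 0.39 and 0.63, and LCOR, a locus that also makes a PRC2 accessory protein, had 0.71 and 0.27. The single gene of this list below 0 with both siRNAs was PHF19, a relative of MTF2, at -0.52 and -0.42, named after its values were seen.

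Of the other PRC1 genes 19 of 21 were measured, with medians of 0.09 and 0.10 and 4 (21.1%) at an unadjusted p under 0.05, close to the 20.9% of all genes. PCGF3 and PCGF5, which take the place of BMI1 in variant PRC1 complexes, had 0.73 and 0.62, and 0.21 and 0.53. BCORL1, a corepressor, had 0.51 and 0.19. BAP1, the deubiquitinase that removes the PRC1 mark, had -0.48 with siRNA 1 and -0.82 with siRNA 2, and its cofactors ASXL1 and ASXL2 had -0.15 and -0.25, and -0.06 and -0.13. Under median centring ASXL2 was above 0 on both arrays and ASXL1 with siRNA 1. KDM6A, which removes the PRC2 mark, had -0.27 with siRNA 1 and 0.36 with siRNA 2, the same order as BMI1, and its relative KDM6B was not kept.

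RBBP4 and RBBP7 also serve other chromatin complexes, so 20 genes of those complexes were listed and 19 measured. Their median was -0.09 with siRNA 1 and -0.03 with siRNA 2, with 7 of 19 (36.8%) at an unadjusted p under 0.05, against 20.9% of all genes, and 0 at an adjusted p under 0.05 (limma). SIN3B, a scaffold for histone deacetylases, was the only one of them to reach 2-fold, at -0.23 with siRNA 1 and -1.05 with siRNA 2. Under median centring SIN3B was at -0.88 with siRNA 2, short of 2-fold.

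Apart from EZH2, 10 targets of miR-101 that the study names were listed, and their median ratio was 0.03 (siRNA 1) and 0.01 (siRNA 2), or 0.05 and 0.08 without SUB1. In the 9 left, 4 (44.4%) had an unadjusted p under 0.05, against 20.9% of all genes, and 0 an adjusted p under 0.05 (limma). DDIT4, a stress-induced inhibitor of mTOR signalling, passed the 2-fold threshold with siRNA 2 only, at 0.51 and 1.68 (320.9% of the Non-T signal with siRNA 2). The study names EZH2 as a target too. It was kept out of the list, and its ratios of -0.23 and -0.73 lay below the list median on both arrays. STMN1, which encodes a microtubule-destabilising protein, was lower than EZH2 on both (-0.40 and -0.83), and POMP was lower with siRNA 1 (-0.29), both named after their values were seen.

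Of 16 genes known to be repressed by EZH2 in cancer cells 11 were measured, and their median ratio was -0.03 (siRNA 1) and 0.22 (siRNA 2). The rest were on the array but too dim for a ratio, so the median leaves out genes of the list with little signal. None reached 2-fold, and 5 of 11 (45.5%) had an unadjusted p under 0.05, against 20.9% of all genes, with 0 at an adjusted p under 0.05 (limma). CDKN1C, which encodes the cell-cycle inhibitor p57, had 0.42 and 0.42. CDH1, which encodes E-cadherin, had 0.59 and 0.22, and the authors' table gave -0.04 with siRNA 2. The signs were thus mixed, with 4 genes below 0 and 4 above 0 with both siRNAs and 3 (27.3%) with opposite signs, against 31.6% of all genes.

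**Figure D5:**
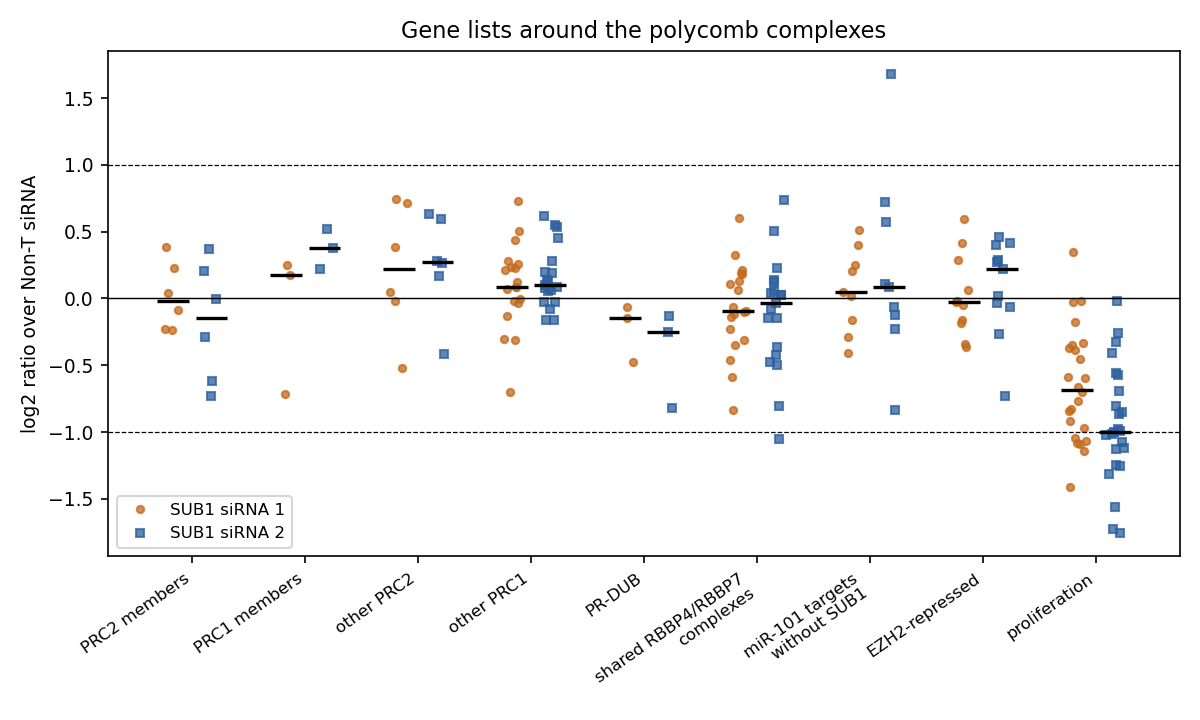
Log2 ratio over Non-T siRNA (vertical axis) of each measured gene in 9 gene groups (horizontal axis) with SUB1 siRNA 1 (circles) and SUB1 siRNA 2 (squares). Black bars are medians and dashed lines a 2-fold change, and the proliferation genes lie lowest with medians of -0.68 and -0.998.

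Promoter sequence is shown for EZH2 and RBBP7, which had ratios below 0 together, for RBBP4, the relative of RBBP7 with the opposite sign, and for BMI1. The stretches are the 150 bases before the outermost RefSeq start site of each gene (GRCh38.p14), read 5′ to 3′ on the strand of the gene. Capitals mark CCAAT or its reverse complement, a box bound by the factor NF-Y in many cell-cycle promoters.
EZH2, chr7:148884292-148884441, - strand: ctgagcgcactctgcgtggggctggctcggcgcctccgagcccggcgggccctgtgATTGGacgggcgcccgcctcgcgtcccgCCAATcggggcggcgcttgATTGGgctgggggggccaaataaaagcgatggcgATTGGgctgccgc
RBBP7, chrX:16870363-16870512, - strand: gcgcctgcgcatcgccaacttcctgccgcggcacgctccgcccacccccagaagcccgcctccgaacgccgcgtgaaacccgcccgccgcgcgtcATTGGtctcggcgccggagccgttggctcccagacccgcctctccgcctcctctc
RBBP4, chr1:32651058-32651207, + strand: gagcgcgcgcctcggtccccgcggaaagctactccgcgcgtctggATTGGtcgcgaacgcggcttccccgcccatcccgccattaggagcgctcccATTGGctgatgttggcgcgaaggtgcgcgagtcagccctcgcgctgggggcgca
BMI1, chr10:22320949-22321098, + strand: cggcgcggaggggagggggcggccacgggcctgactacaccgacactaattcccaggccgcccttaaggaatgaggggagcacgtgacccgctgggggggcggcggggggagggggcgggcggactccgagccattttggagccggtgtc
In the 250 bases before this start site, EZH2 had 4 matches to CCAAT, RBBP4 had 2, RBBP7 had 1 and BMI1 had 0. At least 1 CCAAT on either strand was found for 37.0% of 27305 genes in the RefSeq promoter table (32.0% of its 35116 windows) over the same length, in 6 of 9 polycomb genes with a window and in 17 of 20 proliferation genes with one. The second search was for TTTGGCGC, TTTCCCGC, TTTCGCGC and TTTGCCGC, letters bound by E2F factors, on both strands. It found 3.40% of all genes (2.79% of windows), 8 of 20 proliferation genes and 2 of 9 polycomb genes (EZH1 and SUZ12). TTTGAA, on both strands, was found for 16.1% of all genes (13.3% of windows) and in SUZ12 alone of the polycomb genes. The searches share no match in the printed stretches, and a match is a description of letters and not a binding site.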

How the data were processed

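Both arrays (Agilent 2-colour, 1 per SUB1 siRNA, on the same slide) were scanned by the authors and quantified with Agilent Feature Extraction 9.5.1.1, and the deposited scanner files give, unnormalized, each spot's intensity and local background per channel. The deposited table of log2 ratios was, per the methods, made by the authors with loess on each array. It was used as an alternative, after its rows were matched to spots by feature number. It correlated with loess ratios of median spot signals at a Pearson r of 0.958 (siRNA 1) and 0.970 (siRNA 2) across probes, and its column medians were -0.0055 and -0.0069. Its scale is log2 per the methods. The log10 ratios and p-values of the scanner software are the authors' own comparisons and were not used. Probe coordinates are those of the array design (hg18), and no gene annotation of that build was used here.

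Mean spot signals were corrected by normexp (offset 50) with the median local background and normalized by loess (span 0.3) within each array in limma 3.58.1 under R 4.3.3. Signals of single channels are given after an additional Aquantile step between arrays. Outlier-flagged spots were left out. Probes were kept if a share of 0.5 or more of the spots stood well above background, in 1 channel or both, on each array. Of 19218 genes, 13129 were named through the RefSeq table (GRCh38.p14, for names and promoter sequences) and 6089 kept the name on the array. A change of 2-fold was the threshold in the methods, which used no test. Here the mean of both ratios was tested against 0 with limma (lmFit, eBayes, Benjamini-Hochberg over all genes). That p-value rests on the spread between 2 arrays, each with its own siRNA and Non-T channel. The labels do not say whether both arrays carried the same Non-T extract or which samples were separate cultures. No spot was saturated. Gene spots well above background made up 54.3% in Cy3 of either array, 67.2% in Cy5 with siRNA 1 and 64.5% in Cy5 with siRNA 2. The number of arrays limits the precision.

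The members and gene lists were chosen with earlier results of these data known. Named were all members, SUB1, of each list the genes past 2-fold with at least 1 siRNA or otherwise the 3 with the largest absolute mean ratio, and the 5 genes nearest to EZH2. Genes outside this rule are marked or given in counts, and 1 gene under it is not reported here. The fit was tested on simulated data with changes of 2-fold or more, so that test does not cover ratios as small as those of the polycomb genes. Alternatives were no background correction, median spot signals, median centring, processed signals, the authors' table, all probes averaged, other filters on dim probes, outlier spots kept and an intensity trend in eBayes. RNA sequencing, qPCR, immunoblot and ChIP of the study were not analysed here.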

Additional observations from a re-analysis of the deposited data

Results flagged for a closer look

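BMI1 had ratios on opposite sides of 0 with the siRNAs for each of its 3 probes: -0.71 with siRNA 1 and 0.38 with siRNA 2 for the brightest, -0.50 and 0.55 for the second, and -0.33 and 0.71 for the third. EZH1 also had opposite signs, at 0.044 with siRNA 1 and -0.29 with siRNA 2, from a probe near background. With 1 array per siRNA these differences between siRNAs were not tested, and 31.6% of all genes had opposite signs on the arrays.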

How the results depend on the processing

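Values were recomputed under 10 alternatives, which gave 197 recomputed values. Of these, 177 stayed on the same side of 0 and of the threshold, or, for medians, moved by less than the SD among spots. They include polycomb ratios that other filters on dim probes, kept outlier spots and the intensity trend left identical. The medians and the counts past 2-fold were not recomputed for the intensity trend in eBayes, which leaves the ratios unchanged. No polycomb gene reached 2-fold in any alternative, and none of the 9 reached an adjusted p under 0.05 (limma). Adjusted p ranged from 0.170 to 0.357 for EZH2, from 0.164 to 0.647 for RBBP7 and from 0.0768 to 0.270 for RBBP4. Median centring turned the mean of EED to 0.14 and that of BMI1 to 0.14, and averaging all probes turned that of BMI1 to 0.015. With median centring the medians were 0.41 with siRNA 2 for the polycomb genes, 0.17 and 0.27 for the other polycomb genes, -0.51 and -0.78 for the proliferation genes, 0.13 and 0.15 for the miR-101 targets and 0.052 with siRNA 1 for the genes repressed by EZH2. With processed signals they were 0.21 with siRNA 1 for the polycomb genes, 0.23 with siRNA 2 for the other polycomb genes, and -0.87 and -1.14 for the proliferation genes. The authors' table gave 0.30 with siRNA 2 for the polycomb genes and 0.049 for the genes repressed by EZH2. The miR-101 targets were at -0.10 with siRNA 1 when all probes were averaged. Without a filter on dim probes the polycomb genes (with CBX2) were at 0.10 and the genes repressed by EZH2 at 0.13 with siRNA 2. The cause of these shifts was not tested. The number of genes with an adjusted p under 0.05 was 0 or 1 in 9 alternatives and 129 of 30482 without the filter. With the stricter filter EZH1 had no value. A slide block could not be fitted, since both arrays lie on 1 slide. No paired analysis was possible because each siRNA has 1 array, so no replicate number can serve as a block. The Non-T sample of the same array is already within each ratio.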

Other observations

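Among the reference genes, the ratios for ACTB were 0.75 (siRNA 1) and 0.37 (siRNA 2) on the log2 scale, RPLP0 had -0.44 and -0.55, and HPRT1 had -0.38 and -0.33. The median of the 6 reference genes was -0.03 with siRNA 1 and -0.10 with siRNA 2. Under median centring RPLP0 was at 0.02 with siRNA 1 and -0.07 with siRNA 2. The ratios of EZH2 and RBBP7 were nearer to 0 on the siRNA 1 array than those of RPLP0 and HPRT1, and further from 0 than both on the siRNA 2 array. The brightest KLK3 probe, which stood for KLK3 among the prostate markers, had a mean log2 intensity of 14.4, whereas the 2 other KLK3 probes had 6.45 and 6.01. This comparison of KLK3 probes was chosen after their values were seen.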
